A study of Rattus norvegicus with 15 samples.

Results

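Cultured cells of rat dorsal root ganglia (DRG) were compared after 12 h and after 1 h of dibutyryl cAMP (dbcAMP), to ask which of the mRNA responses seen at 12 h were not yet there, or stood on the other side of the control, at 1 h. The comparison took the arrays that the labels place at 12 h and at 1 h, 3 at each time and 6 of the 15 in the series. For each probe the mean log2 ratio of treated over control RNA at 1 h was subtracted from that at 12 h. Of 5088 probes, 5002 were tested, those with 2 or more ratios at 1 h and 2 or more at 12 h.

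The cells were dissociated from L4 and L5 DRG of juvenile rats, kept in Sato medium on poly-L-lysine or on myelin, and given either 1.5 mM dbcAMP or medium alone. Neither the labels nor the methods used here give the substrate of each array, the strain or the sex, and the treatment protocol lists 0 h where the labels of the first group say 1 h. On every array treated RNA carried Cy5 and untreated RNA Cy3, on spotted oligonucleotides, and no array had the dyes exchanged, so that a dye offset of a probe cancels in the difference between times where it is constant. Nothing says that arrays of the same time are separate cultures. The spread on which the p-values rest is then that between arrays, and it may be technical. A ratio holds no level. The sensory neuron, glial and fibroblast markers could therefore not be checked by their abundance, and a drift of the untreated cells between the times cannot be told apart from one of the treated cells. In these bulk cultures, fewer cells of a type and less RNA per cell cannot be told apart.

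DRG hold the cell bodies of sensory neurons, wrapped by satellite glia and accompanied by Schwann cells, fibroblasts, endothelial cells and resident leukocytes. cAMP is a second messenger that activates protein kinase A and, through it, the transcription factor CREB. Raised cAMP is known to let sensory neurons extend neurites on myelin, an effect that needs new transcription, and dbcAMP is an analog that crosses the membrane. Genes with cAMP response elements are classically induced within the first hours and then damped, while later changes include secreted cytokines, matrix proteins and enzymes.

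Between 1 h and 12 h, 15 probes passed the threshold (limma, adjusted p under 0.05), 0.3% of those tested, with 7 higher (0.14%) and 8 lower (0.16%) at 12 h. The genes that rose were Tnfaip6, Cbr1, Inhba, Sod3 and Timp1, and those that fell were Defa5, Np4, Tmprss11d, Atf3, Ccl2 and Nes. The other 4 probes had no gene symbol in the annotation used here. The called differences ran from 0.74 to 1.89 in size on the log2 scale. Without adjustment, 187 probes were higher and 243 lower at p under 0.05. The arrays of the times did not overlap for any of the 15 called probes, as for 15.7% of the 4928 probes with all 6 ratios.

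The arrays were unequal in spread, and that touches the results below. The SD of the log2 ratios was between 0.357 and 0.394 on the 1 h arrays and on the third 12 h array 0.383, but on the first and second 12 h arrays it was 0.627 and 0.66. Array medians lay between 0.997 and 1.02 as ratios. Correlations across probes, which are not independent replicates, were between 0.41 and 0.48 within 1 h and between 0.3 and 0.46 within 12 h. Gapdh, a glycolytic enzyme spotted 53 times on 51 plates of probes, gave differences between -0.25 and 0.25 with a median of 0.08, and none of its spots was called. With the first and second 12 h arrays both left out, 4 probes were called, all of them lower, and Atf3 and probe 17H06 were the 2 shared with the 15. The lone 12 h array was then assumed to vary like the other groups. Whichever single array of the 6 was left out, 6 of the 15 calls were kept, those of Atf3, Sod3, Tnfaip6, Cbr1, Np4 and probe 17H06, and the other 9 were lost without at least 1 array. With all arrays of 1 replicate number left out at every time, which leaves 2 arrays a time, 0 probes were called by limma, and between 228 and 561 had an unadjusted p under 0.05.

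**Figure D1:**
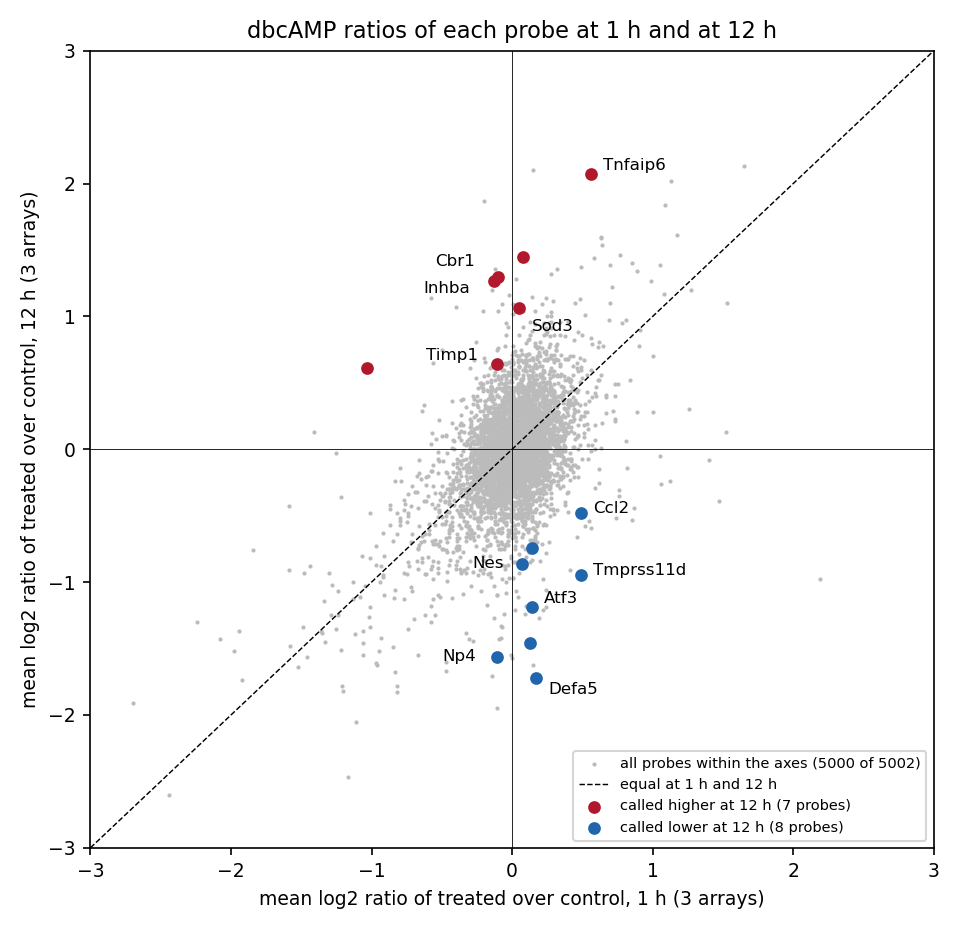
Each point is a probe, with its mean log2 ratio of treated over control at 1 h on the x axis and at 12 h on the y axis, 3 arrays each, and the dashed line marks equal ratios. The 7 red probes were called higher and the 8 blue probes lower at 12 h, 4 of the coloured points have no gene symbol, and most of them lie near 0 at 1 h.

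Of the 15 called probes, 12 moved away from the control between the times, 6 upward and 6 downward. A 1 h mean within 0.2 of 0 on the log2 scale was taken as at the control. Some of these 12 thus changed sign from a small 1 h mean, such as Atf3, from 0.14 to -1.19. From 1 h means further from 0 than that, the ratios of Tmprss11d and Ccl2 crossed 0 downward. That of probe 51F05, which has no symbol, crossed it upward. Tested against 0, 14 of the 15 differed from the control at 12 h and 3 did so at 1 h, namely Tnfaip6, Ccl2 and probe 51F05 (limma, adjusted p = 0.0475, 0.0356 and 0.00969). Among all probes on the array, 430 passed at 12 h and 118 at 1 h. The 15 were chosen by a difference that uses the same 12 h values, so passing at 12 h is no separate evidence. A ratio at a single time, unlike the difference, keeps any constant dye offset of its probe.

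Of the 5 named genes that rose, Tnfaip6, Inhba and Timp1 code for secreted proteins, as does Sod3, an extracellular enzyme described below. Tnfaip6 codes for a secreted protein that binds hyaluronan and is induced in inflammation, Inhba for the subunit of activin A, a ligand of the TGF-beta family, and Timp1 for an inhibitor of matrix metalloproteases. The promoters of Tnfaip6, Inhba and Timp1 are shown because the genes rose together and code for secreted proteins. No promoter was found for Sod3. The sites through which CREB acts are cAMP response elements. The stretches are the 250 bases before the start of each gene in RefSeq on the GRCr8 build of the rat genome, written 5′ to 3′ on the gene's strand, with any cAMP response element, full or short, in capitals.
Tnfaip6, chr3:56911148-56911397, plus strand: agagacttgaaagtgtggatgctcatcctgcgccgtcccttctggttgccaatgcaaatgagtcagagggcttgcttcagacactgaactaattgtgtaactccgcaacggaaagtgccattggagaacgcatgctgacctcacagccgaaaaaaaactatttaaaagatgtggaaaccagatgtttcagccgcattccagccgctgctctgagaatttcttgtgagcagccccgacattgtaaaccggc
Inhba, chr17:53804509-53804758, minus strand: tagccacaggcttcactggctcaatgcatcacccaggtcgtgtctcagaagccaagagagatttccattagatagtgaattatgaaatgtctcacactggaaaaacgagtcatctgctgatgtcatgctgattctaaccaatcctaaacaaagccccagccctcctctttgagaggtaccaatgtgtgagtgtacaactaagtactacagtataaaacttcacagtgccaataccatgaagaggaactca
Timp1, chrX:3771123-3771372, minus strand: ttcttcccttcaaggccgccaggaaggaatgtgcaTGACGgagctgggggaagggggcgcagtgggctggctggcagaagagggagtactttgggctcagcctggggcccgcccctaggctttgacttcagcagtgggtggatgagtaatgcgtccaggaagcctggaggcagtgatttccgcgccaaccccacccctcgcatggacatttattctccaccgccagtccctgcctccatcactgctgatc
The motifs searched were the full element TGACGTCA and the short elements TGACG and CGTCA, which between them read both strands and both lie within the full element. Timp1 held 1 short element, 215 bases before its start, and Tnfaip6 and Inhba held none. Promoters of 300 bases, 250 before and 50 after the start, were found for 7 of the 11 called genes. The full element was in 0 of these 7, against 2.13% of the 3341 promoters of genes on the array. A short element was in 2 of the 7, those of Timp1 and Tmprss11d, against 27.1% of the 3341. These matches are a description of letters and not of binding.

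Tnfaip6 had log2 ratios of 0.55, 0.62 and 0.52 at 1 h and of 2.42, 1.76 and 2.03 at 12 h. All 3 of its 12 h arrays stood far above its 1 h arrays, which were themselves above the control. The difference was 1.50 (SE 0.19, adjusted p = 0.00245), a 2.83-fold rise of the ratio. After scaling all arrays to a common spread it was 0.97 and no longer called (adjusted p = 0.289). Inhba was at 0.01, 0.09 and -0.50 at 1 h and at 1.62, 0.88 and 1.32 at 12 h. Its groups were apart, with the second 12 h array lowest, and the difference was 1.41 (SE 0.27, adjusted p = 0.0454). That call held only without the second 12 h array and was lost without any of the other 5, with an adjusted p of 0.0712 to 0.319. Timp1 was at -0.12, -0.14 and -0.06 at 1 h and at 0.79, 0.51 and 0.61 at 12 h, a tight rise of 0.74 (SE 0.14, adjusted p = 0.0454). It was lost without any single array (adjusted p between 0.0648 and 0.247).

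Tnfaip6 and Timp1 belong to the 30 tested genes of fibroblasts and matrix, and were the only members called, against 0.267% of all 4117 genes called in either direction. The list as a whole had a median of -0.12 beside -0.02 for all genes, with 18 members below 0, where 52.7% of all genes were. At an unadjusted p under 0.05 by limma, 6 members were lower and 2 higher, where 4.83% of all genes were lower and 3.98% higher. Tnc, tenascin-C, differed by -0.87 (SE 0.21, adjusted p = 0.218), and one probe of Col1a1, the main chain of collagen I, by -1.10 (SE 0.28, adjusted p = 0.218) while its other probe gave -0.28. S100a4, a calcium-binding protein common in fibroblasts, gave -0.45 and -0.53 on its probes. Of the 32 tested genes of TGF-beta, activin and BMP signalling, Inhba alone was called, and the median was -0.09. Smad7, an inhibitory member of the pathway, differed by -0.53 (SE 0.24, adjusted p = 0.579).

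Of 40 tested genes of cytokines, chemokines and inflammation, 1 was called higher (Tnfaip6) and 2 lower (Ccl2 and the defensin Defa5). Of all genes, 0.267% were called in either direction. Without adjustment 9 of the 40 were higher and 5 lower, against 3.98% and 4.83% of all genes, and the median was 0.13. Ccl2, the chemokine that attracts monocytes, stood at 0.77, 0.32 and 0.39 at 1 h and at -0.52, -0.65 and -0.28 at 12 h. It was above the control on all arrays at 1 h and below it on all arrays at 12 h, a difference of -0.97 (SE 0.16, adjusted p = 0.0198). A further probe of Ccl2, 52C04, differed by -0.37 (SE 0.14, adjusted p = 0.488), and the call was lost without either of the wide 12 h arrays (adjusted p = 0.0791 and 0.0688) and without the first or the third 1 h array (0.0967 and 0.0664).
Of the chemokines that attract neutrophils, Cxcl1 was at 0.60, 0.89 and 0.40 at 1 h and at 1.76, 1.20 and 1.83 at 12 h. With a difference of 0.96 (SE 0.19, adjusted p = 0.0559) it was the first probe outside the threshold, next to Timp1 and Inhba just inside it. Ccl20, which attracts lymphocytes and dendritic cells, differed by 0.93 (SE 0.18, adjusted p = 0.0676) and was below the control on all arrays at 1 h and above it on all arrays at 12 h. Slpi, a secreted inhibitor of leukocyte proteases, was at 0.11, 0.01 and -0.18 at 1 h and at 1.57, 0.80 and 1.12 at 12 h, and its difference of 1.18 missed the threshold (SE 0.30, adjusted p = 0.218).

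Il6, the interleukin that signals through gp130, had the largest difference of any gene in the lists, 1.95, and was not called. Its log2 ratios were 0.14, 0.23 and 0.09 at 1 h and 2.26, 2.13 and 1.93 at 12 h, with no overlap between the times. The SE of 0.66 and the adjusted p of 0.409 carry the spread of its 18 h arrays, at -0.50, 3.25 and 2.83, because the fit of all 15 arrays takes 1 spread per probe over all times. In a fit of the 6 arrays alone the SE was 0.16 and Il6 had the smallest p of all probes (adjusted p = 0.0186), and under no other alternative was its adjusted p under the threshold. It also passed the unadjusted threshold of the methods' t-test, though not after adjustment. Of the 12 tested gp130 cytokines and receptors, 0 were called by limma. Without adjustment 2 were higher and 0 lower, against 3.98% and 4.83% of all genes. Il6st, which codes for gp130 itself, differed by 0.72 (limma, SE 0.22, adjusted p = 0.39) with arrays apart. The median of that list was 0.17.
Genes for prostaglandin and related lipid synthesis, transport and receptors gave a median of 0.16 over 20 genes, 0 of them called by limma. Without adjustment 4 were higher and 1 lower, where 3.98% and 4.83% of all genes were. Both probes of Ptgs2, the inducible cyclooxygenase, differed upward, by 1.21 (SE 0.41) and 0.87 (SE 0.31), with a limma adjusted p of 0.409 and 0.446. The probe with 1.21 had no ratio on the second 12 h array and stood at -0.17 and 1.48 on the others. Ptges, the prostaglandin E synthase that works downstream of Ptgs2, was below the control at both times. Its mean was -1.84 at 1 h and -0.76 at 12 h (limma, difference 1.08, SE 0.31, adjusted p = 0.323). Ptgs1, the constitutive enzyme, differed by -0.62 and -0.29 on its probes.

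**Figure D2:**
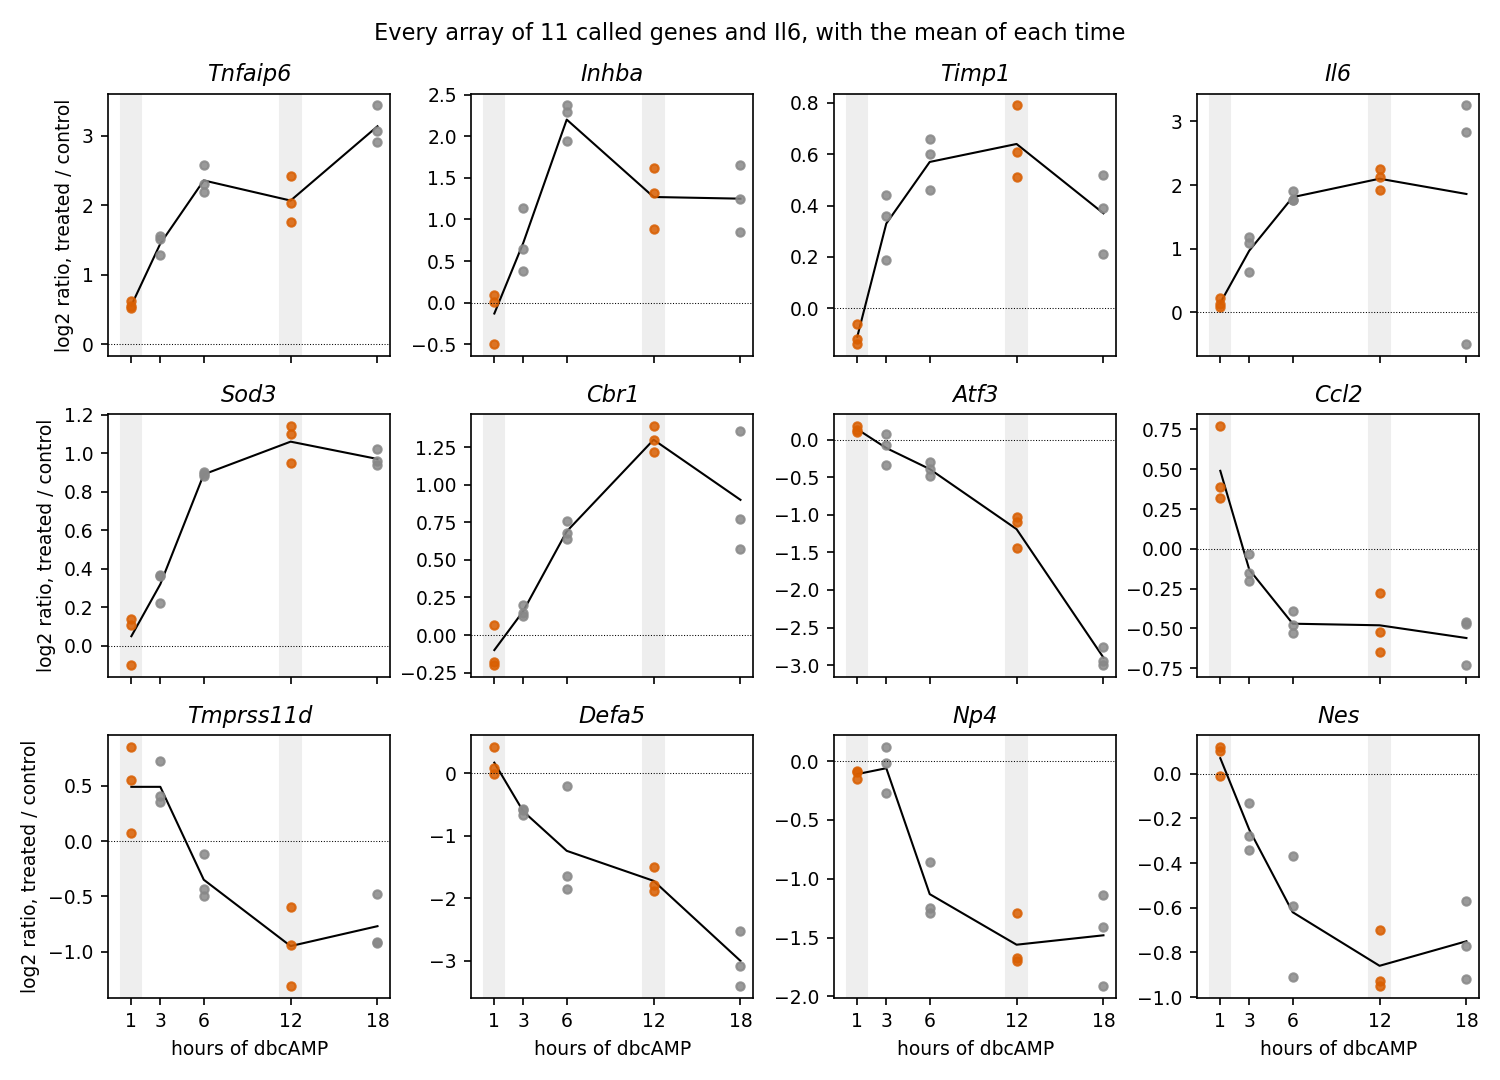
Log2 ratios of treated over control on the y axis against hours of dbcAMP, for the 11 called genes and Il6, with a point per array, a line through the means, and the compared times shaded with orange points. The orange points of 1 h and 12 h are apart in all 12 panels, and Il6 shows 1 array at 18 h, at -0.50, far below the other 2.

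The other named genes that rose, Sod3 and Cbr1, code for enzymes. Sod3, the extracellular superoxide dismutase, was at 0.14, -0.10 and 0.11 at 1 h and at 0.95, 1.10 and 1.14 at 12 h. It lay near the control at 1 h and above it on every 12 h array, a difference of 1.01 (SE 0.13, adjusted p = 0.00245). Cbr1, a carbonyl reductase that also takes quinones and prostaglandins as substrates, was at 0.07, -0.18 and -0.20 at 1 h and at 1.39, 1.30 and 1.22 at 12 h. That was a 2.65-fold rise of the ratio, with a log2 difference of 1.41 (SE 0.18, adjusted p = 0.00245), and Cbr1 and probe 17H06 were called both after scaling of the arrays and in the fit of 6 arrays. Sod3 was not, with an adjusted p of 0.088 after scaling and of 0.146 in the 6 arrays. Of 26 antioxidant enzymes and metallothioneins tested, Sod3 alone was called, where 0.267% of all genes were. The median was 0.22, the highest of the 28 lists, with 16 members above and 10 below 0. Without adjustment 5 were higher and 0 lower, against 3.98% and 4.83% of all genes. The lowest member, Cat, gave -1.11 (limma, SE 0.63, adjusted p = 0.69). Hmox1, heme oxygenase, differed by 0.55 (SE 0.18, adjusted p = 0.392), Nqo1, a quinone reductase, by 0.43 (SE 0.16, adjusted p = 0.481), and Sod2, the mitochondrial dismutase, by 0.57 (SE 0.22, adjusted p = 0.487). The metallothionein Mt1 gave 0.66, 0.22 and 0.12 on its 3 probes.

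Atf3, a transcription factor of the ATF/CREB family that injury and stress induce in sensory neurons, was the named gene with the smallest p. It was at 0.10, 0.13 and 0.18 at 1 h and at -1.09, -1.03 and -1.44 at 12 h. The 1 h arrays sat just above the control and those of 12 h well below it, a difference of -1.32 (SE 0.16, adjusted p = 0.00221). The call held after scaling (adjusted p = 0.0367) and with the third 12 h array alone (adjusted p = 0.00894), and in the fit of 6 arrays the adjusted p was 0.0678. Among 24 tested CREB targets and immediate early genes Atf3 was the only gene called, against 0.267% of all genes, and the median was -0.06. Pde4b and Pde4d, phosphodiesterases that degrade cAMP and are induced by it, differed by 1.01 (SE 0.26, adjusted p = 0.265) and 0.72 (SE 0.25, adjusted p = 0.409), with arrays apart in both. Rgs2, a regulator of G protein signalling, was above the control at both times, at means of 0.73 and 0.40, and differed by -0.33 (SE 0.14, adjusted p = 0.54). Of 28 cAMP signalling enzymes and anchors, 0 were called by limma. Without adjustment 4 were higher and 1 lower, against 3.98% and 4.83% of all genes. Prkaca, the catalytic subunit of protein kinase A, differed by 0.62 (SE 0.18, adjusted p = 0.323).

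The largest called fall was in defensins, antimicrobial peptides of neutrophil granules and of Paneth cells of the gut. Defa5 was at -0.01, 0.09 and 0.42 at 1 h and at -1.88, -1.50 and -1.78 at 12 h, a difference of -1.89 (SE 0.35, adjusted p = 0.0378). Np4 was at -0.15, -0.09 and -0.08 at 1 h and at -1.67, -1.29 and -1.70 at 12 h, a difference of -1.45 (SE 0.21, adjusted p = 0.00582). All arrays of 12 h were below all of 1 h for both genes. The Defa5 call was lost without any single array (adjusted p between 0.0648 and 0.227), and that of Np4 was kept. After scaling to a common spread neither was called (adjusted p = 0.208 and 0.074). RatNP-3b, a defensin looked up after the values of the others had been seen, gave -0.98 (adjusted p = 0.202). The 3 probes sit in neighbouring wells of plate 18, at 18C03 to 18C05, and the genes are close paralogs, so cross-hybridisation between them is possible and their values may not be independent.
S100a8 and S100a9, calcium-binding proteins of neutrophils and monocytes, differed by -0.84 (SE 0.19, adjusted p = 0.14) and -0.56 (SE 0.13, adjusted p = 0.176), with arrays apart. Of the 20 macrophage and leukocyte markers tested, 0 were called, and 10 were above and 10 below 0. Without adjustment 1 was higher and 2 lower, against 3.98% and 4.83% of all genes. Cd14 and Lyz2, markers of monocytes and macrophages, gave -0.74 (SE 0.60) and -0.47 (SE 0.25), each with arrays that overlapped between the times. Other members of the list lay above 0, such as Cybb at 0.39 (SE 0.50), Itgam at 0.25 (SE 0.53) and Csf1r at 0.06 (SE 0.17). Cd8a, a marker of cytotoxic T cells, gave 0.72 (limma, SE 0.22, adjusted p = 0.392), without a ratio on the third 12 h array. Whether fewer leukocytes had a part in the fall of the defensins was not tested. Tmprss11d, a membrane serine protease of airway epithelium, was at 0.85, 0.07 and 0.55 at 1 h and at -0.60, -1.31 and -0.94 at 12 h. Like Ccl2 it went from above to below the control, by -1.44 (SE 0.23, adjusted p = 0.0198), a call lost without the second 12 h array (adjusted p = 0.0688) and without the first or the third 1 h array (0.0967 and 0.114).

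Nes, nestin, an intermediate filament of progenitors and immature glia, fell. It was at 0.10, 0.12 and -0.01 at 1 h and at -0.70, -0.93 and -0.95 at 12 h (difference -0.93, SE 0.16, adjusted p = 0.0313). The call was lost without any single array (adjusted p between 0.052 and 0.15) and when each plate of probes was centred on its median, which moved the difference to -0.71 (adjusted p = 0.135). Nes was the only call among 32 cytoskeletal and growth cone genes, where 0.267% of all genes were called. Of the 32, 27 were below 0, where 52.7% of all genes were. The list median was -0.10. Without adjustment 7 were lower and 1 higher, against 4.83% and 3.98% of all genes. Several of the 32, Nes among them, sat on plates 28 and 43, where the median differences over all probes were -0.083 and -0.127. The count below 0 and the list median were not taken again after plate centring. Tmsb10, an actin-binding thymosin, gave -0.40 (SE 0.15, adjusted p = 0.481), Stmn4, a microtubule-destabilising stathmin, -0.37 (SE 0.15, adjusted p = 0.511), and Gap43, a growth cone protein, -0.29 (SE 0.13, adjusted p = 0.577). Basp1, another growth cone protein, gave -0.44 and -0.10 on its probes. The member higher without adjustment was Map1b, a microtubule-associated protein, at 0.89 on 1 probe and -0.68 on the other, neither of them called.
Of 25 sensory neuron markers 0 were called by limma, and 16 lay below 0 with a median of -0.08. Without adjustment 0 were higher and 3 lower, where 3.98% and 4.83% of all genes were. Uchl1, an abundant neuronal hydrolase, gave -0.50 (SE 0.21, adjusted p = 0.515) and Nefh, the heavy neurofilament, -0.49 (SE 0.20, adjusted p = 0.523). Ngfr, the low-affinity neurotrophin receptor, gave -0.48 on 1 probe and 0.06 on the other. Of 24 Schwann cell and satellite glia markers 0 were called, 2 were higher and 2 lower without adjustment, with 12 above and 12 below 0. Endothelial markers, 13 in all with 0 called and 3 higher without adjustment against 3.98% of all genes, had a median of 0.11. Kdr, the VEGF receptor of endothelium, differed by 0.85 (limma, SE 0.33, adjusted p = 0.491).

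**Figure D3:**
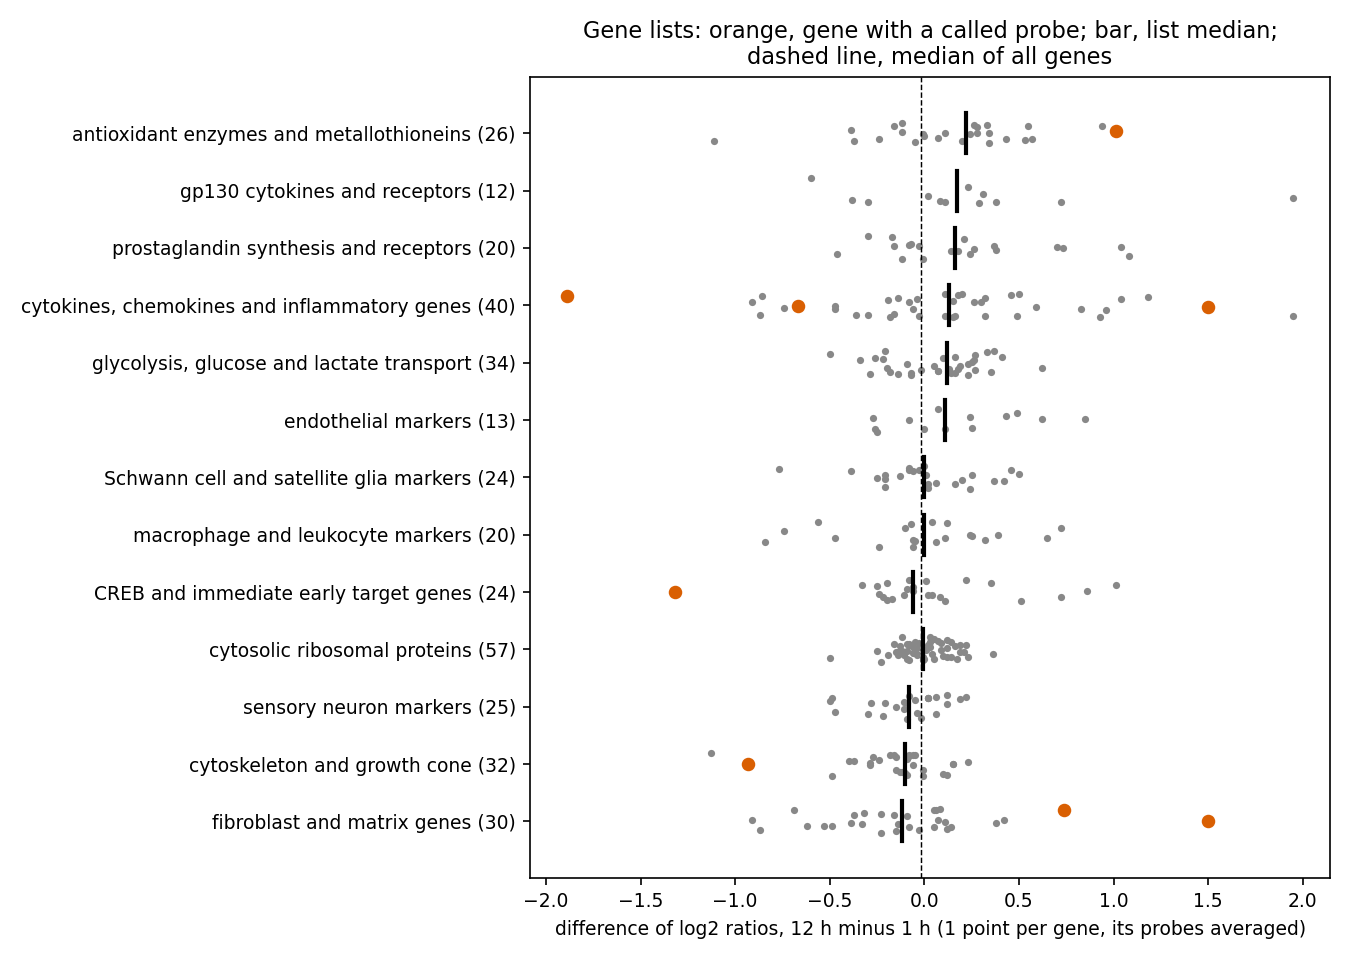
Differences of log2 ratios, 12 h minus 1 h, on the x axis for 13 gene lists, with a point per gene after averaging its probes, the number of genes tested in brackets, a bar at each list's median and a dashed line at the median of all genes, -0.02. Medians run from -0.12 for fibroblast and matrix genes to 0.22 for antioxidant enzymes, and the orange genes had a called probe.

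Of the 15 genes that the study names for dbcAMP and that were tested here, a choice made on these same samples and so no independent evidence, 1 was called higher (Sod3) and 2 lower (Atf3 and Ccl2), where 0.267% of all genes were called. Vgf, a secreted neuropeptide precursor, differed by 0.62 on 1 probe (SE 0.20, adjusted p = 0.392) and by -0.07 on the other. Values for Slpi, Il6, Mt1 and Gap43 are above. The other 7 genes lay between -0.20 and 0.25, with an adjusted p of at least 0.681.

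The 4 called probes without a symbol are given by their well. Probe 17H06 had the smallest p of all, falling from -0.08, 0.28 and 0.20 at 1 h to -1.63, -1.23 and -1.51 at 12 h (difference -1.59, SE 0.16, adjusted p = 0.000636). Probe 49H07 fell by 0.87 (SE 0.16, adjusted p = 0.0313), a call kept only without the third 12 h array and lost without any of the other 5 (adjusted p between 0.0967 and 0.222). Probe 27D01 rose from 0.10, -0.35 and 0.48 to 1.64, 1.39 and 1.31 (difference 1.37, SE 0.23, adjusted p = 0.0232). Its call was kept only without the third 1 h or the third 12 h array and lost without the others (adjusted p between 0.0688 and 0.134). Probe 51F05 was far below the control at 1 h, at -0.71, -1.31 and -1.09, and above it on the 12 h arrays with a ratio, at 0.81 and 0.42. The first 12 h array had none, and the fit drew on 2 arrays at 12 h (difference 1.65, SE 0.23, adjusted p = 0.0313). The call was lost without the second or the third 1 h array (limma, adjusted p = 0.145 and 0.198). Without the second or the third 12 h array the probe had too few ratios to be tested.

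The means of the 3 h and 18 h arrays were not used in the difference, and they show the called probes in other hybridisations. Those arrays did enter the shared spread of each probe, on which the calls rest. A probe with a small shared spread passes more easily in both differences, so passing in the second is not independent of the call. Nothing in the labels or methods says whether untreated cultures were shared between times. Of the 15 called probes 14 could be tested for the difference 18 h minus 3 h, where 3.53% of 4991 probes were called. All 14 had the same sign as between 12 h and 1 h, as did 59.3% of the 4971 probes tested in both, and 9 passed the threshold. These were Atf3 (-2.79), Defa5 (-2.40), Np4 (-1.43), Tmprss11d (-1.26), probe 17H06 (-1.23), probe 49H07 (-0.69), Tnfaip6 (1.69), Cbr1 (0.74) and Sod3 (0.65). Nes, Ccl2, probe 27D01 and Inhba gave -0.50, -0.43, 0.63 and 0.53 and did not pass, and Timp1 gave 0.04 (SE 0.14).

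**Figure D4:**
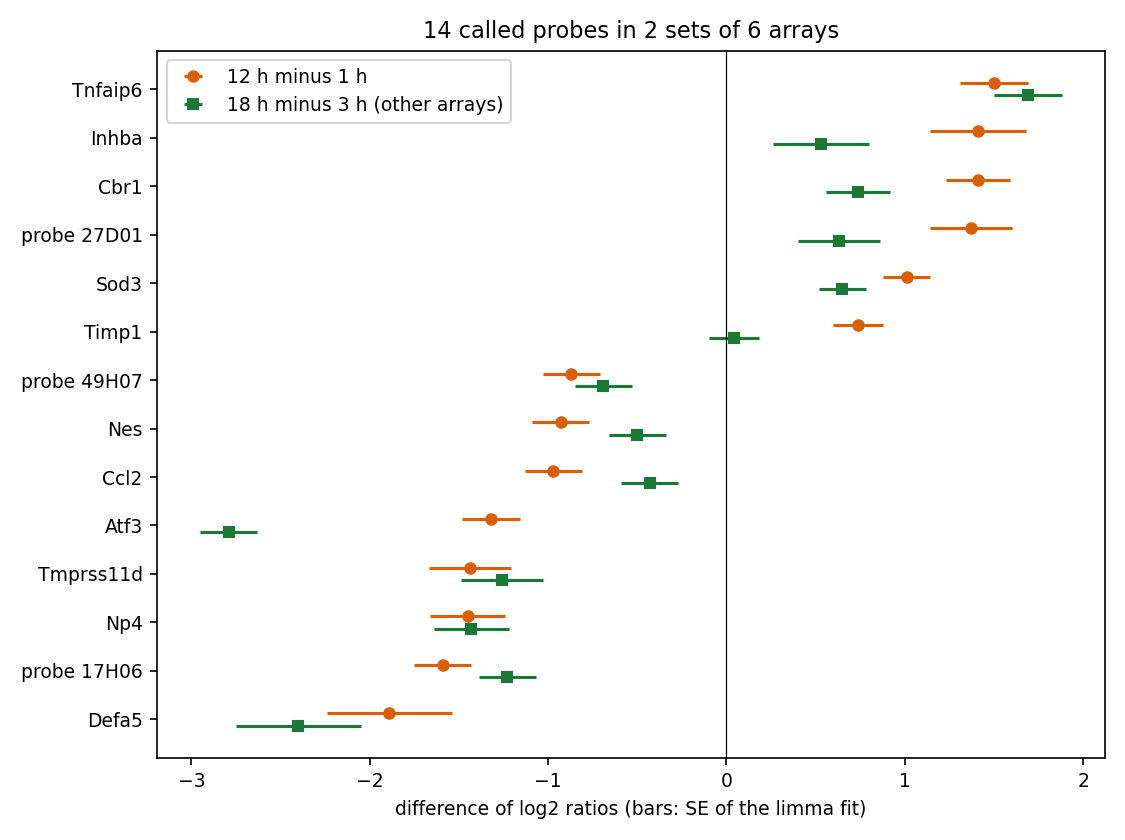
Differences of log2 ratios on the x axis for the 14 called probes tested in both sets of arrays, 12 h minus 1 h in orange and 18 h minus 3 h in green, with bars for the SE of the limma fit. Signs are shared by all 14, Atf3 and Defa5 lie further from 0 in the green set, at -2.79 and -2.40, and Timp1 lies at 0.04 there.

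The order of the times differed between the called genes. At 3 h 11 of the 15 means were nearer to 1 h than to 12 h, and at 6 h 14 were nearer to 12 h. The 15 were chosen by their 1 h and 12 h values, and the share over all probes was not taken, so these counts only describe them. For probe 51F05 the 6 h value was that of 1 array, at -0.12. The exception at 6 h was Atf3, which had means of -0.11 at 3 h, -0.39 at 6 h and -2.90 at 18 h and so lay lower at each later time. Inhba was highest at 6 h, with a mean of 2.20 ± 0.23 (SD, n = 3), and stood at 1.27 ± 0.37 at 12 h. Sod3 was at 0.89 at 6 h and 0.97 at 18 h, near its 12 h mean of 1.06. Tnfaip6 had means of 2.36 at 6 h and 3.14 at 18 h. Ccl2 was already at -0.13 at 3 h and at -0.47 at 6 h, close to its 12 h mean of -0.48. At 18 h all 15 means were on the same side of 0 as at 12 h, as were 66.4% of 4988 probes. That of probe 51F05 at 18 h was the value of 1 array, 1.6.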

How the data were processed

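RNA of treated and untreated rat DRG cells was labelled with Genisphere 3DNA dendrimers and hybridised to two-colour spotted oligonucleotide arrays. The authors deposited 1 linear ratio of treated (Cy5) over control (Cy3) per probe and array, with medians near 1. How they corrected background, normalized and filtered was not stated in the labels or the study's methods. No intensities were used. The log2 of each ratio was taken with no pseudocount and no centring.

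Gene names came from the annotation of the platform, possibly an old one. Of 5088 probes, 4423 carried 1 symbol, 2 several and 663 none, and 4375 gene identifiers matched the GRCr8 gene table with 0 changes of symbol. Of 4153 genes, 191 had several probes, which were tested separately. A gene was counted in a list by its probe with the smallest p, and its probes were averaged for medians.

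All 15 arrays entered a limma 3.58.1 fit in R 4.3.3 (lmFit, contrasts.fit, eBayes), with 1 mean per time and the contrast 12 h minus 1 h, two-sided, and Benjamini-Hochberg adjustment over 5002 probes. The shared spread carries the arrays of other times. At least 2 ratios per time were required. The number of arrays limits the precision. The named genes were the highest and lowest 12 called with arrays apart, the genes the study names for dbcAMP, the 4 members with the smallest p in each of 28 lists and the largest 3 of each class of movement. Not all of them are described. Some other genes, such as S100a4, Ccl20, Stmn4, Cd14 and Cat, fall outside these rules and were named with their values known. The members and lists were chosen with earlier results of these data known.

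Alternatives were scaling to a common spread, centring on array or plate medians, the 6 arrays alone, a replicate block, the methods' t-test, other filters on missing ratios, a robust prior (statmod 1.5.0), array weights, stricter thresholds, and leaving out arrays. The fit was tested on simulated data. Same-numbered arrays did not deviate together across 4815 probes (r between -0.025 and -0.003), so numbers were not taken as pairs. Plots used matplotlib 3.10.9.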

Additional observations from a re-analysis of the deposited data

Results flagged for a closer look

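For 15 probes the effect of dbcAMP at 12 h differed from that at 1 h by the test of the difference itself, which is the comparison of the report. The differences of log2 ratios were 1.50 for Tnfaip6, 1.41 for Cbr1, 1.41 for Inhba, 1.01 for Sod3 and 0.74 for Timp1. They were -1.89 for Defa5, -1.45 for Np4, -1.44 for Tmprss11d, -1.32 for Atf3, -0.97 for Ccl2 and -0.93 for Nes. The probes with no symbol gave -1.59 (17H06), -0.87 (49H07), 1.37 (27D01) and 1.65 (51F05). What lies behind these differences was not tested.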

How the results depend on the processing

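The 15 called probes kept their direction in all 295 values under the alternatives, and in 156 of these they also kept the call. The largest adjusted p over the alternatives was 0.192 for Atf3, 0.295 for Tnfaip6, 0.333 for Np4, 0.389 for Sod3, 0.389 for Cbr1 and 0.183 for probe 17H06, and between 0.426 and 0.947 for the other 9. The count of 15 (7 higher, 8 lower, 8 genes of the lists) came to 8 after scaling to a common spread (3, 5 and 3) and to 5 in the 6 arrays alone (2, 3 and 2). The methods' t-test gave 372 probes at its unadjusted threshold (177, 195 and 78 genes of the lists) and 1 after adjustment (0, 1 and 0). With the third 12 h array alone the count was 4 (0, 4 and 1). An adjusted p under 0.01 left 6 (3, 3 and 3), and a difference of at least 1 left 11, with 5 lower and 5 genes of the lists. Array weights gave 21, of which 12 were higher and which included all 15. With a replicate block the count was 9 (4, 5 and 5), and the same-numbered arrays were not shown to be pairs. Without any single array of either time it was 7 to 20 (3 to 10 higher, 3 to 10 lower, 3 to 5 genes of the lists), 10 of the 20 shared with the 15. Without all arrays of a number it was 0 in each case. The cause was not tested. Centring on array medians (16), centring on plate medians (14), a robust prior (15), all 3 ratios (14) and no filter (19) stayed within 1.5 times the count. No call was among the differences that changed sign. With the third 12 h array alone these were Ntf3 to 0.18, Smad4 to 0.01, Kcne1 to -0.07, Syt5 to 0.01 and Slc38a1 to -0.53, and when single arrays or replicate numbers were left out Insr ranged from -0.01 to 1.10 and Flt1 from -0.02 to 0.40.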

Other observations

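Several gene lists not described in the report had no called member. Of all genes, 0.267% were called, and without adjustment 3.98% were higher and 4.83% lower. Of 57 cytosolic ribosomal proteins 0 were called by limma, with 1 higher and 1 lower without adjustment and a median of -0.01 beside -0.02 for all genes, and of 28 genes of the respiratory chain and ATP synthase 0 passed even without adjustment. The list of glycolytic enzymes and glucose and lactate transporters had a median of 0.12 over 34 genes with 0 called, 2 higher and 0 lower without adjustment. These were the glucose transporter Slc2a1, at 0.41 (SE 0.16, adjusted p = 0.481), and the lactate transporter Slc16a1, at 0.62 (SE 0.25, adjusted p = 0.504). Of 35 genes of the FGF, EGF, PDGF, HGF and VEGF systems 0 were called, with 1 higher and 5 lower without adjustment. Fgf5, a growth factor, differed by -1.11 (SE 0.34, adjusted p = 0.39) and Pdgfa, a mitogen for glia and fibroblasts, by -0.55 (SE 0.15, adjusted p = 0.293). Of 34 potassium channel genes 0 were called, with 4 higher and 0 lower without adjustment and a median of 0.10.

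Size and call parted for many probes: 86 differed by at least 1 in size on the log2 scale, and 75 of these were not called, 38 of them with overlapping arrays. The largest difference of all, 3.40 (SE 1.06, adjusted p = 0.39), was that of Barhl1, a homeobox gene looked up after its value had been seen, at 5.26, 3.29 and 6.03 at 1 h and at 8.45, 9.83 and 6.49 at 12 h. Slc38a1, a glutamine transporter looked up in the same way, was at 2.70, 2.09 and 3.28 at 1 h and at 6.05, 5.15 and 2.16 at 12 h (difference 1.76, SE 0.78, adjusted p = 0.562), and with the third 12 h array alone its difference was -0.53. Both probes had log2 ratios well above 0 at every time. Without a dye exchange, a constant dye offset of a probe cannot be told apart there from more RNA.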
